A study of Danio rerio with 17 samples.

Results

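Eye tissue cells of mutant zebrafish were sorted into a fraction with high and a fraction with low fluorescence of a sox10-driven RFP reporter, and the question here is how the difference between the fractions changed with tumour stage. The data are the 14 mutant libraries of a series of 17: Cancer_High and Cancer_Low (n = 4 each, from 4 tissues labelled as cancer) and PreC_High and PreC_Low (n = 3 each, from 3 tissues labelled as precancerous). High and Low libraries were paired by the tissue code in their descriptions, and the 3 control libraries, which hold the low fraction only, entered 1 alternative fit and nothing else. For each of 22918 genes the log2 difference High over Low was taken within tissues, and the PreC difference was subtracted from the Cancer difference. This value is called the stage interaction below. A negative value means that the gene leaned less towards High, or more towards Low, in Cancer than in PreC.

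All 14 libraries come from fish that carry the reporter, are homozygous for the brca2 hg5 allele and share the rest of their labelled genotype. The fish were 7.5 to 10.4 months old in Cancer and 4.5 to 4.7 months old in PreC. The fractions are defined by the reporter and not by sox10 RNA itself. Stage goes together with age and with the number that ends each library's description, which is 10 to 17 in Cancer and 1 to 8 in PreC. The labels do not say what this number stands for. Stage, age and whatever goes with this number cannot be told apart. The labels do not say that the tissues come from separate animals, and p-values measure only the spread between these tissues.

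Sox10 is a transcription factor of the neural crest and its derivatives, among them Schwann cells and pigment cells, and of oligodendrocytes, the cells that wrap central axons in myelin. In the eye and optic nerve, a sox10 reporter therefore marks myelinating glia and pigment cells, while photoreceptors, retinal neurons, Müller glia, blood cells and keratinocytes are outside its usual range. Malignant peripheral nerve sheath tumours, the tumours this series is titled for, arise in the Schwann cell lineage. In bulk libraries such as these, fewer cells of a type and less RNA per cell cannot be told apart.

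The 14 libraries held 61845021 to 87244522 counts. Counting patterns differed between the stages: 51.2 to 53.9% of values between 20 and 100 counts were even numbers in Cancer and 60.8 to 77.8% in PreC, and 3361 to 4295 gene IDs had 3 to 20 counts in Cancer and 632 to 2344 in PreC. A pair of Low libraries stood apart. Cancer_Low 4 had 406 CPM of SOX10 and 844 CPM of pnp4a, an enzyme gene of iridophores, the reflecting pigment cells, against 15.6 to 72.8 and 9.52 to 98.3 CPM in the other Cancer_Low libraries. PreC_Low 3 had 993 CPM of RAG1, the recombinase gene of developing lymphocytes, against 0.253 and 0.324 CPM in the other PreC_Low libraries, and PreC_High 3 had 32.5 CPM. CPM, counts scaled to a common library total, are on totals scaled by edgeR's trimmed mean method.

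SOX10 followed the sort in both stages. It had 743, 1370.5, 924 and 1081 CPM in Cancer_High and 72.8, 15.6, 47.6 and 406 CPM in Cancer_Low. In PreC_High it had 1456, 1638 and 1692 CPM, and in PreC_Low 19.96, 23.3 and 8.73 CPM. The High and Low libraries did not overlap in either stage. The High over Low difference was 3.85 in Cancer and 6.63 in PreC on the log2 scale, and the stage interaction of -2.78 ± 1.0 (log2 ± SE, as for each interaction below) did not pass the test (edgeR quasi-likelihood, Benjamini-Hochberg adjusted p = 0.181). Without Cancer tissue 4 it was -1.98 (adjusted p = 0.221), and DESeq2 called it. The gene brca2, mutated in all 14 libraries, had means of 10.3 CPM in Cancer_High, 18.2 in Cancer_Low, 14.7 in PreC_High and 13.7 in PreC_Low, with a stage interaction of -0.88 ± 0.48 (adjusted p = 0.360). Counts per gene show no base changes, so the genotype rests on the labels.

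Across the whole table, 415 of 22918 genes (1.81%) had a stage interaction at an adjusted p under 0.05. Of these, 206 (0.899%) were higher in Cancer and 209 (0.912%) lower. The median stage interaction of all genes was -0.02, and the called values had sizes from 1.61 to 14.67 with a median of 3.33 (log2). In 414 of the 415 genes, the differences of the 4 Cancer tissues did not overlap those of the 3 PreC tissues, against 4465 of all 22918 genes. The test that chose the 415 genes used these same differences, so this separation follows largely from the choice and is no separate support. 117 called genes had a mean log2 CPM under 2, and 15 had a group of libraries at 0 counts throughout. More genes were called between the fractions: 6684 (29.2%) between High and Low in Cancer and 8245 (36.0%) in PreC. The stage interaction combines both differences and is generally less precise than either. These counts therefore do not show how often the fractions differed against how often their difference changed.

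**Figure D1:**
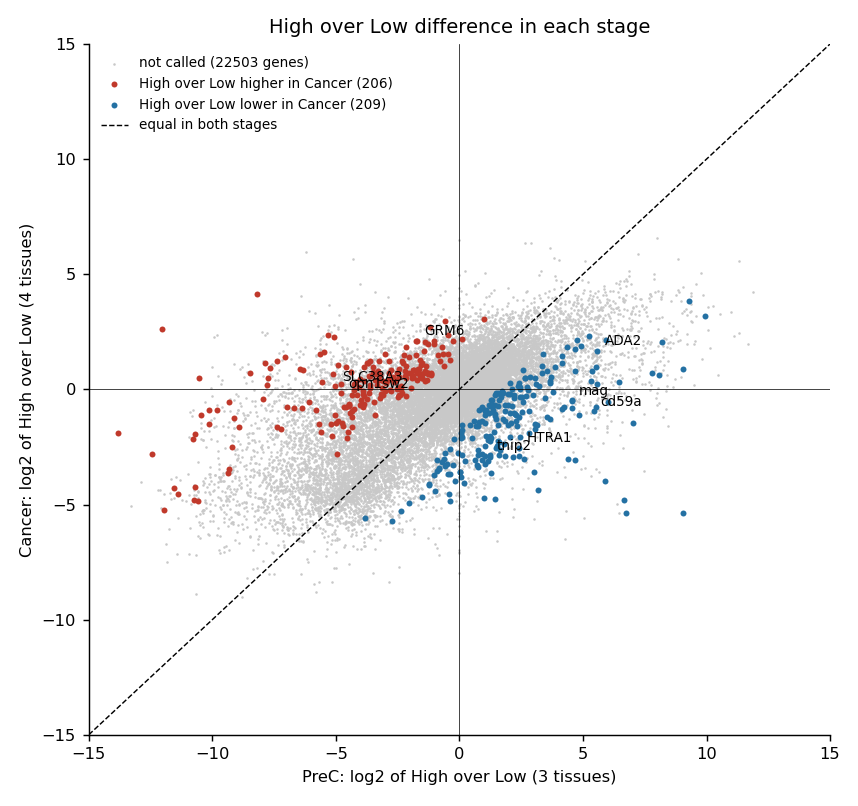
Each point is 1 of 22918 genes, with the log2 High over Low difference in PreC (3 tissues) on the horizontal axis and that in Cancer (4 tissues) on the vertical axis. Red and blue points are the 206 and 209 genes with a called stage interaction, and on the dashed line both stages have the same difference. Most red points lie left of 0 in PreC and near 0 in Cancer.

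The called genes fell into a few patterns. Of the 206 that were higher in Cancer, 145 were called towards Low in PreC and in neither direction in Cancer. A further 24 were called towards Low in both stages, 21 towards High in Cancer and towards Low in PreC, 15 towards High in Cancer alone, and 1 towards High in both. Of the 209 that were lower in Cancer, 73 were called towards High in PreC and in neither direction in Cancer. Another 59 were called towards Low in Cancer and towards High in PreC, 54 towards Low in Cancer alone, 17 towards High in both stages and 6 towards Low in both. A call in only 1 stage does not by itself show a change, but each of these genes passed the test of the difference between stages.

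The stage interaction of a gene can come from its High libraries, its Low libraries or both. Sizes of the Cancer minus PreC difference were compared without regard to sign. Among the 206 genes higher in Cancer, the difference was larger in Low than in High for 159. Its signed median was 0.60 in High and -2.87 in Low. Among the 209 genes lower in Cancer it was larger in High for 101 and in Low for 108. Here the signed medians were -1.39 and 1.41 in the same order, and 27 genes were above 0 in High and 166 in Low. Over all 22918 genes, the difference was larger in High for 9470 and in Low for 13448. These splits are group means of log2 CPM and were not tested.

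**Figure D2:**
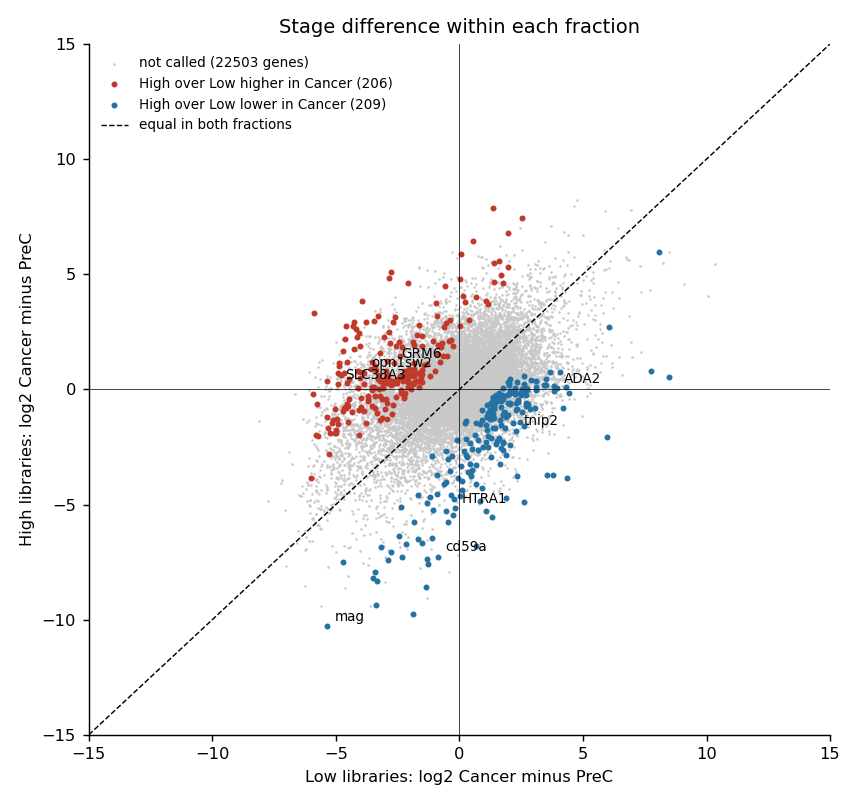
Each point is 1 gene, with the Cancer minus PreC difference of mean log2 CPM in Low libraries on the horizontal axis and that in High libraries on the vertical axis. Red points (206 genes) lie mostly left of 0, at a median of -2.87 in Low. Of the blue points (209 genes), 27 lie above 0 in High and 166 above 0 in Low. Many of them were thus both lower in Cancer_High than in PreC_High and higher in Cancer_Low than in PreC_Low.

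The number of calls depended on single tissues. Leaving out 1 tissue left 113 calls without Cancer 1, 359 without Cancer 2, 173 without Cancer 3, 596 without Cancer 4, 3 without PreC 1, 50 without PreC 2 and 146 without PreC 3. All 415 called genes kept their direction and an unadjusted p under 0.05 in each of these fits, with adjusted p up to 0.158 without PreC 1 and up to 0.215 without PreC 2. These fits reuse most of the libraries by which the genes were chosen, so they are no independent support. The 3 genes called without PreC 1 were SLC38A3 (ENSDARG00000091061), ADA2 (ENSDARG00000015623) and pimr55. Every other call named below ended without PreC 1. For most of them, the text gives the highest adjusted p that leaving out any 1 tissue gave. Over all genes, DESeq2 called 7.54% higher and 5.18% lower in Cancer, limma voom 2.06% and 1.86%, and the fit without the tissue block called 1.13% higher. List counts by these tools are read against those shares, and list counts by edgeR against 0.899% higher and 0.912% lower. At an unadjusted p under 0.05, edgeR had 4182 of the 22918 genes, 2013 higher and 2169 lower in Cancer. Counts of list members at that p are read against these numbers.

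ADA2 and SLC38A3 were the only genes called in all 17 alternative fits, and they were named after their values were seen. ADA2 encodes a secreted adenosine deaminase, which turns adenosine into inosine. It had 309.9, 409, 181 and 571 CPM in Cancer_High and 95.8, 102, 70.19 and 180.0 CPM in Cancer_Low, against 343, 341 and 302 CPM in PreC_High and 8.33, 7.39 and 5.23 CPM in PreC_Low. The High libraries of both stages overlapped, while each Cancer_Low library was above every PreC_Low library, and the stage interaction was -3.90 ± 0.33 (adjusted p = 0.00551, at most 0.0455 without 1 tissue). SLC38A3 (ENSDARG00000091061), a glutamine transporter gene, showed the opposite pattern. It had 2.004, 1.21, 6.09 and 0.975 CPM in Cancer_High and 1.96, 1.38, 4.62 and 0.808 CPM in Cancer_Low, against 2.71, 1.85 and 0.913 CPM in PreC_High and 63.9, 63.1 and 40.9 CPM in PreC_Low. Only the PreC_Low libraries stood above the rest, and the stage interaction was 5.17 ± 0.46 (adjusted p = 0.00551, at most 0.0455 without 1 tissue). The third gene, pimr55, belongs to a large family of Pim kinase related genes between which reads may be shared. It was uneven between Cancer tissues, at 0.0415, 0.0411, 0 and 31.6 CPM in Cancer_High and 0.421, 0.0276, 0 and 68.8 CPM in Cancer_Low, against 565, 132 and 131 CPM in PreC_High and 13.7, 0.451 and 0.708 CPM in PreC_Low, and its call ended by limma voom with an estimated tissue correlation (adjusted p = 0.129), without the tissue block (adjusted p = 0.359) and without the block and with controls (adjusted p = 0.357).

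Genes of myelin were enriched in High in PreC, and 3 of them were called lower in Cancer in the stage interaction. Of 20 tested genes of myelin and mature oligodendrocytes, 3 were lower and 0 higher, against 0.912% and 0.899% of all genes. The list's median stage interaction was -1.93 (-2.21 to -1.54 without 1 tissue), from a median High over Low difference of 0.30 in Cancer and 3.19 in PreC. Its summed level was 1140 to 1849 CPM in Cancer_High and 767 to 911 CPM in Cancer_Low, against 6880 to 8215 CPM in PreC_High and 786 to 1288 CPM in PreC_Low. PreC_High stood above all other libraries, and Cancer_High above Cancer_Low. DESeq2 called 9 members lower and 1 higher, and limma voom 4 lower. Leaving out 1 tissue left 3 to 5 members called lower without any of Cancer 1 to 4, but 0 without PreC 1, 2 without PreC 2 and 1 without PreC 3.

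The gene cldnk, for claudin k, a tight junction protein of zebrafish myelin, had 0.111, 1.16, 0.401 and 0.804 CPM in Cancer_High and 1.49, 4.096, 0.385 and 0.527 CPM in Cancer_Low, against 382, 278 and 318 CPM in PreC_High and 8.56, 20.4 and 8.51 CPM in PreC_Low. It was near 0 in both Cancer fractions, with a stage interaction of -5.96 ± 0.95 (adjusted p = 0.0208, at most 0.0936 without 1 tissue). The adhesion molecule gene mag, whose product sits on the innermost myelin wrap, had 0.152, 0.219, 0.0446 and 0.201 CPM in Cancer_High and 0.276, 0.386, 0.147 and 0.0703 CPM in Cancer_Low, against 190.2, 176 and 244 CPM in PreC_High and 5.23, 16.3 and 7.66 CPM in PreC_Low. For mag the stage interaction was -5.01 ± 0.72 (adjusted p = 0.0168, at most 0.0789). Like cldnk, mag was near 0 in both Cancer fractions, so the sizes of their Cancer differences are uncertain. The calls of cldnk and mag also ended without PreC 3, and that of cldnk without PreC 2.

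Another myelin gene kept a High enrichment in Cancer at much lower levels. The gene mbpa, for myelin basic protein, had 27.4, 8.93, 3.80 and 6.57 CPM in Cancer_High and 2.82, 0.124, 0.962 and 3.77 CPM in Cancer_Low, against 1242, 1034 and 1245 CPM in PreC_High and 25.3, 61.3 and 28.6 CPM in PreC_Low, and its stage interaction of -2.23 ± 1.02 did not pass (adjusted p = 0.282). The connexin gene GJB1 (ENSDARG00000035553), whose product forms gap junctions of myelinating glia, was named after its values were seen. It had 34.04, 35.4 and 35.6 CPM in PreC_High and at most 1.41 CPM elsewhere, with a stage interaction of -6.57 ± 1.17 (adjusted p = 0.0280, at most 0.0922, lost also without Cancer 1, Cancer 3 or PreC 3).

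**Figure D3:**
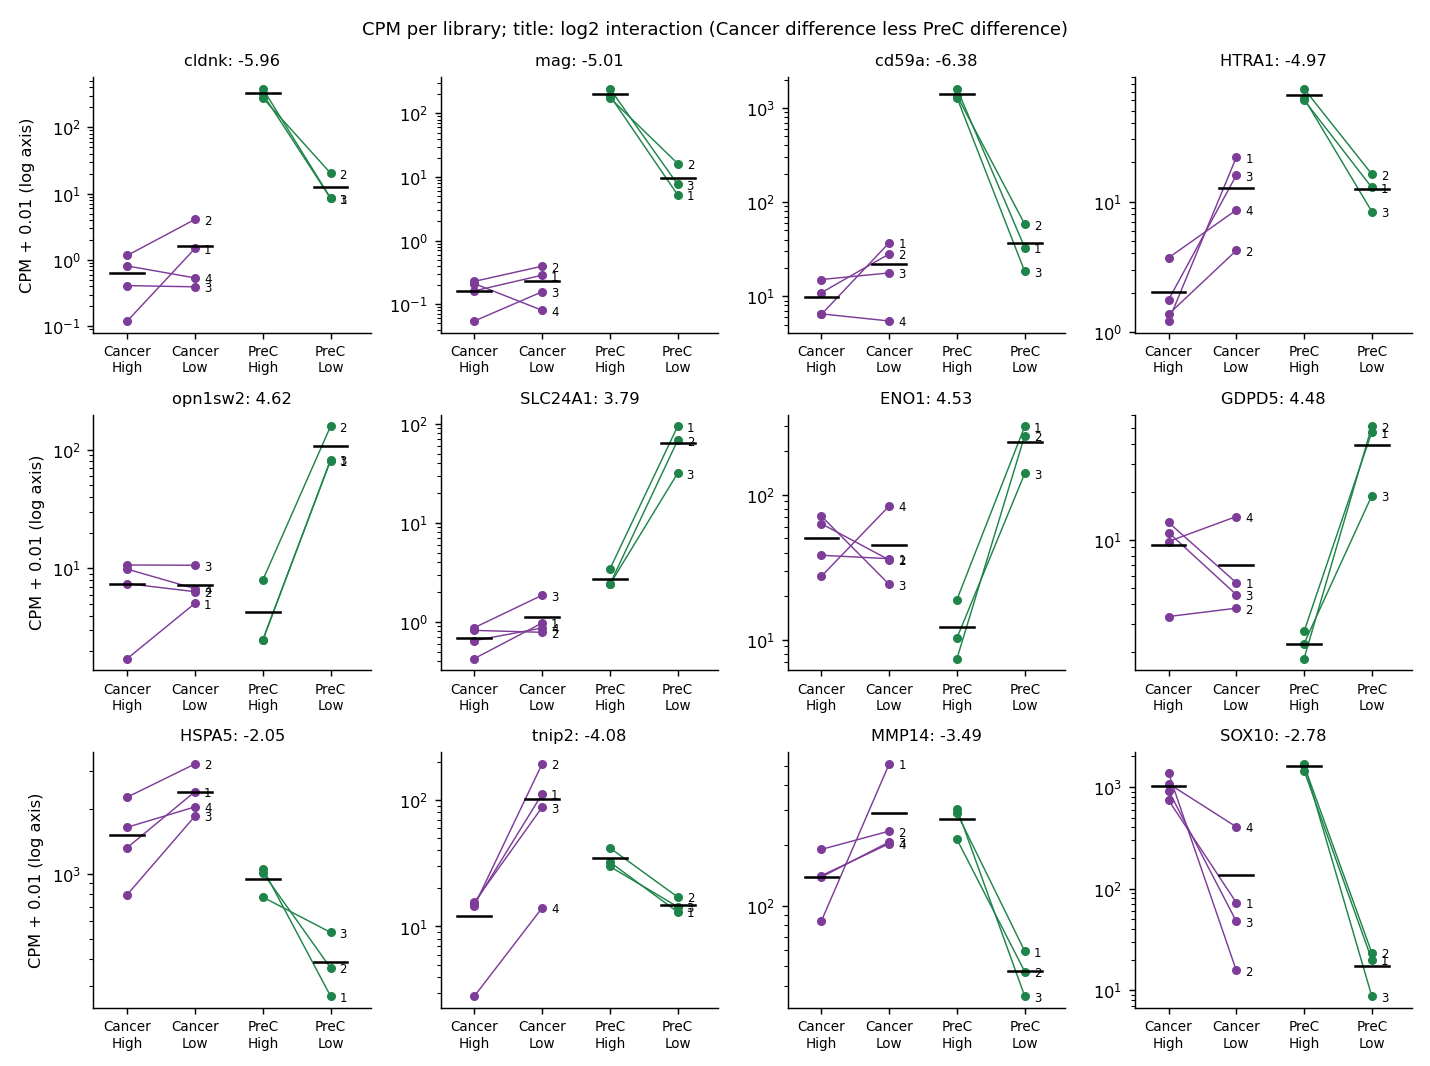
CPM per library (log axis, with 0.01 added) of 12 genes, with the stage interaction (log2) above each panel. Lines join the High and Low library of a tissue, numbers are tissues and bars are group means. PreC_High stands above all other libraries for cldnk, mag, cd59a and HTRA1, PreC_Low for opn1sw2, SLC24A1, ENO1 and GDPD5.

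On the lists of the oligodendrocyte and neural crest lineages, edgeR called 2 genes, both on the neural crest list. Of 16 tested oligodendrocyte lineage factors and precursor genes, 0 were called by edgeR (5 at an unadjusted p under 0.05), against 5 by DESeq2 and 1 by limma voom, and the median stage interaction was -0.79 (-1.20 to -0.20 without 1 tissue). Of 33 neural crest and Schwann lineage genes, 2 (6.06%) were lower in Cancer and 0 higher, against 0.912% and 0.899% of all genes. Their median was -1.11 (-1.27 to -0.67 without 1 tissue). DESeq2 called 8 of them lower and 3 higher, and limma voom 4 and 1. The called members were PRRX1 (ENSDARG00000033971), a homeobox factor of mesenchyme, and SOX9 (ENSDARG00000043923), a factor of neural crest, cartilage and Müller glia. PRRX1 had 0.608, 1.095, 0.268 and 0.944 CPM in Cancer_High and 16.3, 8.36, 11.09 and 9.15 CPM in Cancer_Low, against 8.09, 8.12 and 11.2 CPM in PreC_High and 7.94, 9.73 and 6.47 CPM in PreC_Low. It was low in Cancer_High, and the other groups overlapped, with a stage interaction of -4.24 ± 0.75 (adjusted p = 0.0276, at most 0.0952 without 1 tissue). SOX9 had 0.594, 0.438, 0.713 and 0.510 CPM in Cancer_High and 4.2, 3.92, 6.39 and 2.14 CPM in Cancer_Low, against 10.7, 16.3 and 14.3 CPM in PreC_High and 5.11, 17.3 and 4.22 CPM in PreC_Low. The SOX9 stage interaction was -3.72 ± 0.68 (adjusted p = 0.0285, at most 0.105), and both calls ended without Cancer 1, Cancer 3 or any 1 PreC tissue. The neuregulin receptor gene of Schwann cells, erbb3b, had 0.249, 1.22, 0.580 and 2.43 CPM in Cancer_High and 19.6, 19.5, 7.52 and 7.39 CPM in Cancer_Low, against 34.5, 21.8 and 26.8 CPM in PreC_High and 31.3, 26.5 and 11.5 CPM in PreC_Low, and missed the threshold (stage interaction -4.20 ± 0.96, adjusted p = 0.0585).

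Pigment cell genes leaned towards High in both stages at the median. Of 22 melanophore and retinal pigment epithelium genes, 0 were called by edgeR (3 at an unadjusted p under 0.05, 3 by DESeq2, 1 by limma voom), with a median stage interaction of -0.51 (-0.79 to 0.15 without 1 tissue, so that its sign turned without Cancer 1 or PreC 3). Of 22 iridophore and xanthophore genes, 1 was higher and 1 lower in Cancer, against 0.899% and 0.912% of all genes. Their median was -0.45 (-0.99 to -0.33 without 1 tissue), with median High over Low differences of 1.48 in Cancer and 1.75 in PreC. TFEC, a transcription factor of iridophore fate, had 404, 249.7, 336 and 601 CPM in Cancer_High and 96.6, 61.5, 83.7 and 217 CPM in Cancer_Low, against 244, 309.7 and 271 CPM in PreC_High and 11.2, 10.3 and 6.46 CPM in PreC_Low. The Low libraries made the difference: Cancer_Low was above PreC_Low in every library, while the High libraries overlapped. Its stage interaction was -3.02 ± 0.36 (adjusted p = 0.00842, at most 0.0573 without 1 tissue and 0.00985 without Cancer 4, whose Low library stood apart). The other called member was IMPDH1 (ENSDARG00000042336), a guanine nucleotide synthesis enzyme that is abundant in mammalian photoreceptors. It had 12.3, 2.30, 4.65 and 3.76 CPM in Cancer_High and 11.35, 13.7, 11.5 and 6.35 CPM in Cancer_Low, against 4.87, 3.42 and 1.74 CPM in PreC_High and 138, 132 and 54.1 CPM in PreC_Low, with a stage interaction of 3.90 ± 0.60 (adjusted p = 0.0193, at most 0.0804, lost without any 1 PreC tissue).

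Among all genes with a clear symbol and a mean log2 CPM of at least 2, the lowest stage interaction was that of cd59a, which encodes a membrane-anchored protein of the CD59 family; human CD59 blocks the membrane attack complex of complement. It had 6.41, 10.9, 15.04 and 6.48 CPM in Cancer_High and 37.0, 28.1, 17.7 and 5.45 CPM in Cancer_Low, against 1599, 1349 and 1287 CPM in PreC_High and 32.9, 58.2 and 18.3 CPM in PreC_Low. Each PreC_High library was above all others, and the stage interaction was -6.38 ± 0.72 (adjusted p = 0.00842, at most 0.0573 without 1 tissue). CD82 (ENSDARG00000019098), a tetraspanin of the cell surface, had the same order of groups. It had 7.97, 7.63, 17.5 and 5.23 CPM in Cancer_High and 39.9, 17.7, 40.7 and 12.03 CPM in Cancer_Low, against 238, 228 and 231 CPM in PreC_High and 23.2, 43.1 and 21.9 CPM in PreC_Low. CD82 had a stage interaction of -4.54 ± 0.44 (adjusted p = 0.00677, at most 0.0573), and in Cancer it was called towards Low. AATK (ENSDARG00000104442), a kinase gene of nervous tissue, had 1.31, 0.822, 2.04 and 0.897 CPM in Cancer_High and 11.5, 2.61, 4.21 and 1.97 CPM in Cancer_Low, against 105, 106 and 113 CPM in PreC_High and 11.4, 21.5 and 8.68 CPM in PreC_Low. The value for AATK was -4.80 ± 0.61 (adjusted p = 0.0107, at most 0.0649).

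The other genes of the 12 lowest also had their highest mean in PreC_High, except SYNGR3 and MFSD6. SEMA3B, a secreted axon guidance molecule, had 2.39, 1.86, 0.951 and 1.76 CPM in Cancer_High and 16.8, 12.7, 12.99 and 8.07 CPM in Cancer_Low, against 66.7, 50.0 and 81.5 CPM in PreC_High and 25.2, 19.5 and 11.5 CPM in PreC_Low, with a stage interaction of -4.73 ± 0.55 (adjusted p = 0.00842, at most 0.0573 without 1 tissue). HTRA1 (ENSDARG00000032831), a secreted serine protease, had 1.202, 1.36, 1.75 and 3.70 CPM in Cancer_High and 21.9, 4.21, 15.9 and 8.61 CPM in Cancer_Low, against 60.3, 73.5 and 62.1 CPM in PreC_High and 12.8, 16.2 and 8.39 CPM in PreC_Low. The stage interaction of HTRA1 was -4.97 ± 0.73 (adjusted p = 0.0176, at most 0.0791), and it was called towards Low in Cancer and towards High in PreC. SYNGR3 (ENSDARG00000025034), a synaptic vesicle membrane protein, had 0.608, 0.9996, 0.951 and 0.263 CPM in Cancer_High and 23.1, 9.60, 38.7 and 8.91 CPM in Cancer_Low, against 12.9, 7.67 and 7.28 CPM in PreC_High and 3.501, 3.33 and 3.04 CPM in PreC_Low. Cancer_High and Cancer_Low did not overlap, nor did PreC_High and PreC_Low, and the order of the fractions was opposite in the 2 stages, with a stage interaction of -6.19 ± 0.69 (adjusted p = 0.00842, at most 0.0573). MFSD6 (ENSDARG00000054583), a membrane protein of the major facilitator family, had means of 0.858 CPM in Cancer_High, 24.5 in Cancer_Low, 22.2 in PreC_High and 12.8 in PreC_Low, and a stage interaction of -5.68 ± 0.83 (adjusted p = 0.0176, at most 0.0684).

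The last 4 of the 12 lowest were PLCL1, dhrs12la, EFEMP2 and crp2. PLCL1, a catalytically inactive relative of phospholipase C, averaged 1.07 CPM in Cancer_High, 9.12 in Cancer_Low, 57.2 in PreC_High and 10.7 in PreC_Low (stage interaction -5.30 ± 0.81, adjusted p = 0.0190, at most 0.0826). For dhrs12la, of the short-chain dehydrogenase family, the means were 1.65, 1.34, 455 and 15.6 CPM in the same order of groups (stage interaction -4.95 ± 0.89, adjusted p = 0.0282, at most 0.110). EFEMP2 (ENSDARG00000094324), an elastic fibre protein, averaged 8.61, 27.3, 55.4 and 6.65 CPM (stage interaction -4.66 ± 0.92, adjusted p = 0.0386, at most 0.111). The pentraxin gene crp2, a relative of C-reactive protein, had 851, 720.1 and 799 CPM in PreC_High and 3.70 to 81.8 CPM in Cancer_High (stage interaction -4.54 ± 0.91, adjusted p = 0.0395, at most 0.130). Beside PreC 1, PLCL1 and crp2 were lost without Cancer 1, PreC 2 or PreC 3, EFEMP2 without Cancer 1, Cancer 4, PreC 2 or PreC 3, dhrs12la without Cancer 3 or PreC 3, and HTRA1 without PreC 2 or PreC 3.

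Cone photoreceptor genes were among those whose Low enrichment was smaller in Cancer. Of 37 tested photoreceptor genes, 5 were higher in Cancer in the stage interaction and 0 lower, against 0.899% and 0.912% of all genes, and the median was 1.15 (0.75 to 1.72 without 1 tissue). The list leaned towards Low in both stages, with median High over Low differences of -3.36 in Cancer and -4.93 in PreC. Its summed level was 49.7 to 73.7 CPM in Cancer_High and 456 to 858 CPM in Cancer_Low, against 1318 to 1746 CPM in PreC_High and 29480 to 66940 CPM in PreC_Low. Photoreceptor RNA was therefore far lower in Cancer in both fractions, and the groups did not overlap. DESeq2 called 12 members higher and limma voom 4. Without 1 tissue, the count of members called higher was 2 (Cancer 1), 5 (Cancer 2), 3 (Cancer 3), 4 (Cancer 4), 0 (PreC 1), 2 (PreC 2) and 3 (PreC 3).

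The blue cone opsin gene opn1sw2 had 1.73, 7.42, 10.7 and 9.82 CPM in Cancer_High and 5.07, 6.34, 10.6 and 6.74 CPM in Cancer_Low, against 2.49, 7.95 and 2.47 CPM in PreC_High and 80.8, 157 and 82.0 CPM in PreC_Low. The fractions overlapped in Cancer and were apart in PreC, and the stage interaction was 4.62 ± 0.56 (adjusted p = 0.00842, at most 0.0573 without 1 tissue). The gene pde6ha, for the inhibitory subunit of the cone phosphodiesterase, had 16.9, 13.2, 20.4 and 10.2 CPM in Cancer_High and 43.3, 48.5, 55.0 and 34.4 CPM in Cancer_Low, against 60.1, 47.7 and 59.3 CPM in PreC_High and 1473, 1864 and 1091 CPM in PreC_Low. High stayed below Low in both stages, by -1.60 in Cancer and -4.70 in PreC (log2), with a stage interaction of 3.10 ± 0.36 (adjusted p = 0.00842, at most 0.0573). GNAT2, the cone transducin subunit, had 1.41, 0.917, 2.78 and 2.37 CPM in Cancer_High and 5.41, 6.16, 12.1 and 7.11 CPM in Cancer_Low, against 11.2, 11.2 and 13.6 CPM in PreC_High and 308, 398 and 184 CPM in PreC_Low. Its stage interaction was 2.47 ± 0.45 (adjusted p = 0.0283, at most 0.112, lost also without Cancer 1, Cancer 3 or PreC 2). The other called members were PDE6B (ENSDARG00000011671) and GUCA1A (ENSDARG00000100747). PDE6B, for a rod phosphodiesterase subunit, had a stage interaction of 2.13 ± 0.45 (adjusted p = 0.0468). GUCA1A encodes a guanylate cyclase activator, and its counts were near 0 in PreC_High, so that no fold is given. The adjusted p of GUCA1A was 0.0282, at most 0.0934, and its call ended without any 1 tissue other than Cancer 4.

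The rod genes GNAT1 and saga had stage interactions near 0. The rod transducin gene GNAT1 had differences of -5.05 in Cancer and -4.93 in PreC, with a stage interaction of -0.12 ± 0.40 (adjusted p = 0.915). The rod arrestin gene saga had differences of -4.90 and -4.96 in the same order, with a stage interaction of 0.06 ± 0.43 (adjusted p = 0.964). SLC24A1, the rod sodium, calcium and potassium exchanger, and RDH10 (ENSDARG00000058730), a retinol dehydrogenase of the visual cycle, were named after their values were seen. SLC24A1 had 0.415, 0.808, 0.862 and 0.634 CPM in Cancer_High and 0.961, 0.772, 1.84 and 0.855 CPM in Cancer_Low, against 3.40, 2.38 and 2.37 CPM in PreC_High and 94.5, 68.1 and 31.7 CPM in PreC_Low, with a stage interaction of 3.79 ± 0.52 (adjusted p = 0.0148, at most 0.0826). RDH10 (ENSDARG00000058730) had a stage interaction of 3.25 ± 0.49 (adjusted p = 0.0176, at most 0.0804), and both calls ended also without PreC 2.

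Inner retinal and synaptic genes had a median stage interaction of 1.54 over 44 tested members (1.38 to 1.92 without 1 tissue), of which 2 were called higher in Cancer and 1 lower, against 0.899% and 0.912% of all genes. DESeq2 called 16 higher and 2 lower, and limma voom 7 and 2. Without 1 tissue, 6 were called higher without Cancer 2 and 0 without Cancer 1, Cancer 3 or PreC 1. GRM6 (ENSDARG00000025671), the glutamate receptor of ON bipolar cells, had 8.22, 5.15, 15.8 and 24.9 CPM in Cancer_High and 2.11, 1.28, 2.91 and 5.92 CPM in Cancer_Low, against 3.75, 18.2 and 1.98 CPM in PreC_High and 19.6, 20.4 and 11.5 CPM in PreC_Low. It was called towards High in Cancer and towards Low in PreC, with a stage interaction of 3.85 ± 0.67 (adjusted p = 0.0262, at most 0.105 without 1 tissue, lost without Cancer 1, Cancer 3, PreC 1 or PreC 3). The call of GRM6 also ended without the tissue block (adjusted p = 0.123) and without the block and with controls (adjusted p = 0.0705). PROX1, a homeobox factor of horizontal and other retinal cells, had 8.35, 17.04, 10.3 and 6.76 CPM in Cancer_High and 10.4, 15.03, 7.91 and 9.50 CPM in Cancer_Low, against 6.29, 5.26 and 4.75 CPM in PreC_High and 44.7, 54.0 and 20.9 CPM in PreC_Low. The stage interaction of PROX1 was 2.71 ± 0.47 (adjusted p = 0.0262, at most 0.0986, lost without Cancer 1, Cancer 3, PreC 1 or PreC 2). ELAVL3, an RNA-binding protein of neurons, went the other way. It had 0, 0.219, 0.0149 and 0.108 CPM in Cancer_High and 0.263, 1.92, 0.0679 and 0.375 CPM in Cancer_Low, against 18.7, 15.4 and 22.6 CPM in PreC_High and 4.46, 6.56 and 2.33 CPM in PreC_Low, with a stage interaction of -5.11 ± 1.01 (adjusted p = 0.0385, at most 0.119, lost without any 1 tissue other than Cancer 4). ELAVL3 was near 0 in Cancer, above all in Cancer_High, so the size of its Cancer difference is uncertain. The call of ELAVL3 also ended without the tissue block (adjusted p = 0.103) and without the block and with controls (adjusted p = 0.0713). Müller glia genes were not called by edgeR (0 of 27, 7 at an unadjusted p under 0.05), against 4 by DESeq2 and 1 by limma voom. Their median was 0.26 (0.15 to 1.07 without 1 tissue), but -0.0385 over genes with a mean count of at least 100.

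Several more of the 12 highest values belonged to genes that stood out in PreC_Low. BCO2 (ENSDARG00000055722), a carotenoid-cleaving oxygenase, had 17.6, 5.09, 14.4 and 23.9 CPM in Cancer_High and 8.70, 5.49, 10.2 and 4.09 CPM in Cancer_Low, against 2.54, 4.31 and 3.03 CPM in PreC_High and 44.3, 70.08 and 33.1 CPM in PreC_Low. Its stage interaction was 4.83 ± 0.64 (adjusted p = 0.0138, at most 0.0723 without 1 tissue). LRIT3 (ENSDARG00000055463), a membrane protein of the photoreceptor to bipolar cell synapse, had 3.40, 4.16, 1.16 and 2.35 CPM in Cancer_High and 1.05, 1.65, 1.098 and 2.53 CPM in Cancer_Low, against 9.58, 3.96 and 2.33 CPM in PreC_High and 46.2, 76.9 and 34.2 CPM in PreC_Low. Its PreC_Low libraries were above all others, with a stage interaction of 4.24 ± 0.69 (adjusted p = 0.0232, at most 0.0803, lost without any 1 PreC tissue or Cancer 1). DDC, the decarboxylase that makes dopamine and serotonin, had 7.10, 5.34, 51.1 and 13.5 CPM in Cancer_High and 3.73, 4.00, 8.95 and 12.8 CPM in Cancer_Low, against 2.54, 1.49 and 1.52 CPM in PreC_High and 26.6, 24.0 and 12.7 CPM in PreC_Low. For DDC, 2 of the 4 Cancer_High libraries and Cancer_Low 4 were above the lowest PreC_Low library, so PreC_Low did not stand apart. Its stage interaction was 4.45 ± 0.66 (adjusted p = 0.0176, at most 0.0804), and the calls of BCO2 and DDC ended also without PreC 2. COL2A1 (ENSDARG00000069093), the fibrillar collagen of cartilage and vitreous, had 14.3, 0.959, 11.2 and 2.197 CPM in Cancer_High and 5.45, 5.07, 5.76 and 1.55 CPM in Cancer_Low, against 4.27, 1.49 and 2.34 CPM in PreC_High and 78.8, 72.3 and 54.8 CPM in PreC_Low. The highest of the 12 values was that of COL2A1, 5.02 ± 0.89 (adjusted p = 0.0280, at most 0.0949, lost without any 1 PreC tissue or Cancer 1 or Cancer 3). 

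The remaining members of the 12 highest were GDPD5 (ENSDARG00000077284), a phosphodiesterase of the glycerophosphodiester family, DCLK1 (ENSDARG00000018856), a microtubule-associated kinase, sp100.3 and the chemokine gene ccl44. GDPD5 averaged 9.29 ± 4.17 CPM in Cancer_High, 6.94 ± 4.77 in Cancer_Low, 2.25 ± 0.435 in PreC_High and 39.1 ± 17.6 in PreC_Low (SD, n = 4 in Cancer and 3 in PreC), with a stage interaction of 4.48 ± 0.67 (adjusted p = 0.0176, at most 0.0837, lost without PreC 1 or PreC 2). DCLK1 had a stage interaction of 3.89 ± 0.67 (adjusted p = 0.0262, at most 0.101, lost without Cancer 1, Cancer 3, PreC 1 or PreC 2) and was called towards Low in PreC alone. Unlike these, ccl44 was called towards High in Cancer alone. It had 86.5, 9.16, 62.3 and 90.9 CPM in Cancer_High and 12.8, 1.86, 2.38 and 41.4 CPM in Cancer_Low, against 3.68, 1.73 and 3.32 CPM in PreC_High and 6.75, 7.36 and 4.99 CPM in PreC_Low, with a stage interaction of 3.87 ± 0.80 (adjusted p = 0.0429). Its call was among the least stable, ending without any 1 tissue other than Cancer 4, at adjusted p up to 0.119, and also by limma voom with an estimated tissue correlation (adjusted p = 0.123), without the tissue block (adjusted p = 0.208) and without the block and with controls (adjusted p = 0.135). The gene sp100.3 had a stage interaction of 4.1 ± 0.84 (adjusted p = 0.0420, at most 0.141), and its call too ended without any 1 tissue other than Cancer 4.

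Glycolysis and hypoxia genes leaned towards Low in both stages, by a median of -0.90 in Cancer and -1.96 in PreC (log2). Of 42 tested members, 2 were called higher and 0 lower, against 0.899% and 0.912% of all genes, and 0 were called without PreC 1. The median stage interaction was 1.30, but 0.31 without PreC 3 and 0.58 over genes with a mean count of at least 100. DESeq2 called 11 higher and limma voom 4. The list's summed level was 4980 to 9394 CPM in Cancer_High and 9078 to 15880 CPM in Cancer_Low, against 1334 to 1752 CPM in PreC_High and 4238 to 5728 CPM in PreC_Low. Both fractions were thus higher in Cancer. ENO1 (ENSDARG00000013750), a copy of the glycolytic enzyme enolase, had 38.3, 63.1, 71.1 and 27.4 CPM in Cancer_High and 36.2, 35.5, 24.1 and 83.8 CPM in Cancer_Low, against 18.9, 7.41 and 10.3 CPM in PreC_High and 297, 256 and 140.4 CPM in PreC_Low. The Cancer fractions overlapped, and the stage interaction was 4.53 ± 0.73 (adjusted p = 0.0213, at most 0.0826 without 1 tissue, lost also without Cancer 1, PreC 2 or PreC 3). PFKL (ENSDARG00000099755), a subunit of phosphofructokinase, had 27.7, 39.2, 34.7 and 89.9 CPM in Cancer_High and 18.2, 20.6, 18.3 and 40.6 CPM in Cancer_Low, against 25.3, 19.7 and 40.0 CPM in PreC_High and 92.9, 95.8 and 70.5 CPM in PreC_Low. It was called towards High in Cancer and towards Low in PreC, with a stage interaction of 2.56 ± 0.42 (adjusted p = 0.0229, at most 0.0952, lost also without PreC 2).

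A pair of matrix metalloproteinases and a collagen shifted towards Low in Cancer. Of 36 tested fibroblast and collagen matrix genes, 3 were called lower in Cancer and 0 higher, against 0.912% and 0.899% of all genes, with a median stage interaction of -0.83 that was -0.42 without Cancer 1 and -0.40 without PreC 3. MMP14 (ENSDARG00000008388), a membrane-bound matrix metalloproteinase, had 84.2, 191, 139 and 141 CPM in Cancer_High and 509.5, 236, 208 and 204 CPM in Cancer_Low, against 289.8, 214 and 305 CPM in PreC_High and 59.5, 47.1 and 35.5 CPM in PreC_Low. PreC_Low was low and Cancer_Low was above Cancer_High in each library, with a stage interaction of -3.49 ± 0.58 (adjusted p = 0.0241, at most 0.0891 without 1 tissue). MMP2, a secreted metalloproteinase that MMP14 activates in mammals, had 19, 12.7, 14.96 and 18.1 CPM in Cancer_High and 337, 60.5, 75.4 and 68.2 CPM in Cancer_Low, against 99.6, 138 and 72.2 CPM in PreC_High and 68.9, 91.6 and 33.0 CPM in PreC_Low. Cancer_High was below all other libraries, with a stage interaction of -3.39 ± 0.54 (adjusted p = 0.0208, at most 0.0826), and it and MMP14 were lost without any 1 PreC tissue. COL12A1 (ENSDARG00000078322), a collagen on fibril surfaces, had 85.2, 9.85, 68.5 and 228 CPM in Cancer_High and 521, 58.9, 158 and 214 CPM in Cancer_Low, against 65.8, 88.0 and 45.5 CPM in PreC_High and 11.97, 14.3 and 11.96 CPM in PreC_Low, with a stage interaction of -3.94 ± 0.66 (adjusted p = 0.0245, at most 0.0952, lost without any 1 PreC tissue or Cancer 1). Its call also ended without the tissue block (adjusted p = 0.101) and without the block and with controls (adjusted p = 0.0705). Without 1 tissue the count was 2 (Cancer 1), 5 (Cancer 2), 3 (Cancer 3), 4 (Cancer 4) and 0 (any 1 PreC tissue). Cancer_Low 1 was far above the other Cancer_Low libraries for all 3 genes, and the list's summed level ran from 4076 to 18390 CPM in Cancer_Low.

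The NF-kB pathway is the signalling route from inflammatory receptors to the transcription factors NF-kB and its inhibitors. Its genes were grouped after their values were seen, which may have shaped the signs and counts of the group. Of 29 tested members, 8 were called lower in Cancer and 0 higher, against 0.912% and 0.899% of all genes, with a median stage interaction of -1.27 (-1.36 to -0.97 without 1 tissue) from median High over Low differences of -0.94 in Cancer and 0.18 in PreC. DESeq2 called 11 lower and limma voom 10. Without 1 tissue the count was 1 (Cancer 1), 4 (Cancer 2), 2 (Cancer 3), 10 (Cancer 4), 0 (PreC 1), 1 (PreC 2) and 3 (PreC 3). The inhibitor gene tnip2 had 15.1, 14.6, 15.6 and 2.80 CPM in Cancer_High and 112, 194, 88.0 and 14.03 CPM in Cancer_Low, against 32.4, 41.9 and 29.9 CPM in PreC_High and 13.02, 17.1 and 14.3 CPM in PreC_Low. Within each Cancer tissue Low was above High, the reverse of each PreC tissue, and the stage interaction was -4.08 ± 0.42 (adjusted p = 0.00716, at most 0.0573). The I-kappa-B gene nfkbiab had 387, 428, 262 and 409.6 CPM in Cancer_High and 870.3, 956, 723 and 356 CPM in Cancer_Low, against 761, 793 and 482 CPM in PreC_High and 285, 341 and 178 CPM in PreC_Low, with a stage interaction of -2.27 ± 0.42 (adjusted p = 0.0319, at most 0.112, lost without any 1 tissue other than Cancer 4). The other called members were CARD9 and tifa, adaptors upstream of the pathway, the ubiquitin ligase gene traf3, the deubiquitinase gene CYLD, the inhibitor gene nfkbib and the subunit gene nfkb2. Their stage interactions ran from -2.73 ± 0.49 for CARD9 to -2.03 ± 0.35 for nfkb2, with adjusted p from 0.0176 for traf3 to 0.0380 for nfkbib. The highest adjusted p without 1 tissue ran from 0.0826 for traf3 to 0.134 for nfkbib. The calls of CARD9, tifa and nfkbib ended without any 1 tissue other than Cancer 4. Without the tissue block the list held 4 calls, and those of CARD9, tifa, nfkbib and nfkb2 had ended. Without the block and with controls, tifa (adjusted p = 0.0798) and nfkb2 (adjusted p = 0.140) were lost. The nfkb2 call also ended by limma voom with an estimated tissue correlation (adjusted p = 0.0530), and that of nfkbib without a filter (adjusted p = 0.0533).

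Markers of macrophages, in which this pathway is active, were Low-enriched in both stages. The 33 tested macrophage and microglia genes summed to 844 to 1820 CPM in Cancer_High and 5106 to 20010 CPM in Cancer_Low, against 504 to 715 CPM in PreC_High and 3273 to 5378 CPM in PreC_Low. In the stage interaction, 0 of the 33 were called by edgeR and 1 each by DESeq2 and limma voom. At an unadjusted p under 0.05 by edgeR there were 5, against 4182 of all 22918 genes. The median was -0.20 (-0.48 to 0.19 without 1 tissue, above 0 without Cancer 1, Cancer 3 or PreC 3). Of the list, 31 members were called towards Low in Cancer and 28 in PreC, against 3978 and 4644 of all 22918 genes. Of the defining genes, 1 of 3 IDs of MPEG1 (ENSDARG00000078569) was at 0 in PreC_High, and the rest were above 0 on average in every group. SPI1, a myeloid transcription factor, averaged 11.6 CPM in Cancer_High, 195 in Cancer_Low, 3.66 in PreC_High and 49.0 in PreC_Low, with a stage interaction of -0.25 ± 0.46 (adjusted p = 0.826). The part of macrophages in the NF-kB values was not tested.

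The list of inflammatory signalling genes, which shares nfkb2 and nfkbiab with the group of NF-kB genes, had 37 tested members. Of these, 1 was called higher and 2 lower, against 0.899% and 0.912% of all genes. The list's median was -1.13 (-1.44 to -0.55 without 1 tissue). DESeq2 called 3 higher and 10 lower, and limma voom 1 and 4. Its member called higher was tnfaip2b, which had 2.24, 1.86, 0.654 and 0.665 CPM in Cancer_High and 71.3, 77.1, 25.3 and 8.79 CPM in Cancer_Low, against 0, 0.0123 and 0 CPM in PreC_High and 12.5, 8.63 and 5.49 CPM in PreC_Low, with PreC_High so near 0 that no fold is given (adjusted p = 0.0208, lost without any 1 PreC tissue, and also by limma voom with an estimated tissue correlation (adjusted p = 0.213) and without the tissue block (adjusted p = 0.0527)). Of 35 interferon response genes, with a median of -0.42 (-0.72 to -0.21 without 1 tissue), 1 was called lower and 0 higher, against 0.912% and 0.899% of all genes. That gene was mxc, a member of the Mx family of antiviral GTPases. It had 132, 185, 171 and 40.3 CPM in Cancer_High and 335, 220.1, 342 and 133 CPM in Cancer_Low, against 60.0, 69.0 and 75.4 CPM in PreC_High and 9.61, 22.5 and 13.7 CPM in PreC_Low. Both Cancer fractions were mostly above both PreC fractions, Low was above High in each Cancer tissue and below it in each PreC tissue, and the stage interaction was -3.33 ± 0.45 (adjusted p = 0.0143, at most 0.0770 without 1 tissue). Of 32 T and NK cell genes, edgeR called only rorc, a nuclear receptor gene of T helper cells and thymocytes, at 3.13 ± 0.46 (adjusted p = 0.0176, at most 0.0869, lost without any 1 PreC tissue). The call also ended by limma voom with an estimated tissue correlation (adjusted p = 0.208), without the tissue block (adjusted p = 0.170) and without the block and with controls (adjusted p = 0.103), and DESeq2 called 4 members higher and 1 lower. The list's median was 0.66 (0.32 to 1.28 without 1 tissue). It was -0.0968 without the tissue block and 0.11 without the block and with controls. The gene rorc had 183 CPM in PreC_Low 3, the library with high RAG1, against 11.8 and 21.2 CPM in the other PreC_Low libraries.

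Most genes of protein folding in the endoplasmic reticulum had negative values, and 1 passed the test. Of 27 tested unfolded protein response genes, 1 was called lower and 0 higher, against 0.912% and 0.899% of all genes. Of the 27, 25 had negative values, and the median was -1.16 (-1.63 to -0.92 without 1 tissue). DESeq2 called 8 lower and limma voom 4, and edgeR called 7 without Cancer 4, 1 without PreC 3 and 0 without any other 1 tissue. The called member was HSPA5, the main chaperone of the endoplasmic reticulum. It had 1319, 2259, 799 and 1638 CPM in Cancer_High and 2396, 3219.7, 1846 and 2036 CPM in Cancer_Low, against 1055, 1009 and 778 CPM in PreC_High and 270.5, 365 and 534 CPM in PreC_Low. Low was above High in each Cancer tissue and below it in each PreC tissue, with a stage interaction of -2.05 ± 0.40 (adjusted p = 0.0385, at most 0.154, lost without Cancer 1, 2 or 3, PreC 1 or PreC 2). The call also ended without a filter (adjusted p = 0.0512), without the tissue block (adjusted p = 0.0530) and without the block and with controls (adjusted p = 0.0701). A group of 21 genes of protein entry into the endoplasmic reticulum was chosen after values were seen, which may have shaped its signs and counts. All 21 were negative, with a median of -1.04 (-1.18 to -0.87 without 1 tissue). Of them, 2 were called lower by edgeR, against 0.912% of all genes, 8 by DESeq2 and 5 by limma voom. The called genes were SSR3, of the translocon-associated complex, at -1.98 ± 0.36 (adjusted p = 0.0282, at most 0.103), and TRAM1, of the translocation channel, at -1.95 ± 0.38 (adjusted p = 0.0368, at most 0.144). Both were lost without any 1 tissue other than Cancer 4, and TRAM1 also without the tissue block (adjusted p = 0.0674) and without the block and with controls (adjusted p = 0.0615).

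HSPA5 is also on the list of dissociation and immediate early genes, which rise when tissue is enzymatically dispersed. Of its 30 tested members, with a median of -0.71 (-1.11 to -0.32 without 1 tissue), 2 were called lower and 0 higher, against 0.912% and 0.899% of all genes. The count was 6 without Cancer 4, 1 without PreC 3 and 0 without any other 1 tissue. The other called member, the heat shock co-chaperone gene dnajb1b, had 414, 523, 938 and 189 CPM in Cancer_High and 945, 933, 1222 and 84.1 CPM in Cancer_Low, against 1109, 997 and 594 CPM in PreC_High and 153, 253 and 104 CPM in PreC_Low. Its stage interaction was -2.78 ± 0.55 (adjusted p = 0.0385, at most 0.131), and the call ended without any 1 tissue other than Cancer 4. It also ended by limma voom with an estimated tissue correlation (adjusted p = 0.0875), without the tissue block (adjusted p = 0.114) and without the block and with controls (adjusted p = 0.141). The summed level of the list was 9585 to 15250 CPM in Cancer_High and 7805 to 17870 CPM in Cancer_Low, against 7831 to 15680 CPM in PreC_High and 5208 to 10870 CPM in PreC_Low. These ranges overlapped. Within tissues, the sum in Low was above that in High in Cancer 1, 2 and 3 (17870, 16150 and 17480 against 10840, 10840 and 9585 CPM). It was below that in High in Cancer 4 (7805 against 15250 CPM) and in each PreC tissue. The part of dissociation in the chaperone values was not tested.

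The Arp2/3 complex, which nucleates branched actin filaments, was another group chosen after its values were seen. That choice may have shaped its signs and counts. Of 12 tested subunit genes, 2 were called lower in Cancer and 0 higher, against 0.912% and 0.899% of all genes, with a median of -1.06 (-1.30 to -0.67 without 1 tissue). The gene actr3 had 57.7, 78.3, 47.6 and 65.8 CPM in Cancer_High and 284, 393, 274 and 189 CPM in Cancer_Low, against 93.2, 89.6 and 97.3 CPM in PreC_High and 106, 111 and 111 CPM in PreC_Low. Cancer_Low was above every other library, with a stage interaction of -1.95 ± 0.35 (adjusted p = 0.0277, at most 0.105, lost without any 1 PreC tissue or Cancer 1 or Cancer 3). ACTR2 had 127, 119, 150.1 and 124 CPM in Cancer_High and 436, 421, 423 and 266 CPM in Cancer_Low, against 83.5, 103 and 129 CPM in PreC_High and 97.0, 90.9 and 99.6 CPM in PreC_Low, and a stage interaction of -1.66 ± 0.34 (adjusted p = 0.0411, at most 0.164, lost without any 1 tissue other than Cancer 4). Without 1 tissue the count was 1 (Cancer 2), 3 (Cancer 4) and 0 (any other). The call of ACTR2 also ended with RLE scaling (adjusted p = 0.0502) and without a filter (adjusted p = 0.0594).

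Proliferation genes leaned towards High in both stages at the median, and edgeR called no stage interaction among them. Of 43 tested cell cycle genes, 0 were called by edgeR, 4 by DESeq2 and 0 by limma voom. At an unadjusted p under 0.05 by edgeR there were 7, all lower in Cancer, against 2169 of all 22918 genes. The median stage interaction was -0.98, from median High over Low differences of 0.72 in Cancer and 1.73 in PreC, and 42 of 43 values were negative. The summed level was 3144 to 4431 CPM in Cancer_High and 1787 to 3060 CPM in Cancer_Low, against 2835 to 3449 CPM in PreC_High and 745 to 2867 CPM in PreC_Low. The median was -0.41 without PreC 1 and -1.60 without PreC 3, whose Low library had the high RAG1 level. Of 34 homologous recombination and Fanconi genes, the pathway that brca2 belongs to, 0 were called by edgeR (4 at an unadjusted p under 0.05, 3 by DESeq2, 0 by limma voom), with a median of -0.81 (-1.19 to -0.38 without 1 tissue).

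Mitochondrially encoded genes were grouped after their values were seen, which may have shaped their signs and counts. All 13 had a positive stage interaction, with a median of 2.39 (1.86 to 2.94 without 1 tissue), and 9 were called higher in Cancer by edgeR, against 0.899% of all genes. DESeq2, limma voom and the fit without the tissue block called all 13. They took 4.53%, 7.09%, 4.40% and 5.76% of the scaled counts in Cancer_High and 3.26%, 3.13%, 3.57% and 3.76% in Cancer_Low, against 4.64%, 3.29% and 4.25% in PreC_High and 15.1%, 16.7% and 5.98% in PreC_Low. The share was higher in High than in Low in each Cancer tissue and lower in each PreC tissue, and the high values were those of PreC_Low 1 and 2. The highest value was that of MT-ATP6, a subunit of the ATP synthase, at 2.75 ± 0.50 (adjusted p = 0.0283, at most 0.112, lost without Cancer 3, PreC 1 or PreC 2). Without 1 tissue the count was 1 (Cancer 1), 3 (Cancer 2), 0 (Cancer 3), 7 (Cancer 4), 0 (PreC 1), 0 (PreC 2) and 12 (PreC 3). Photoreceptors are rich in mitochondria, and the photoreceptor sums given above were highest in the same PreC_Low group. Whether these shares follow the cells or the RNA quality was not tested.

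**Figure D4:**
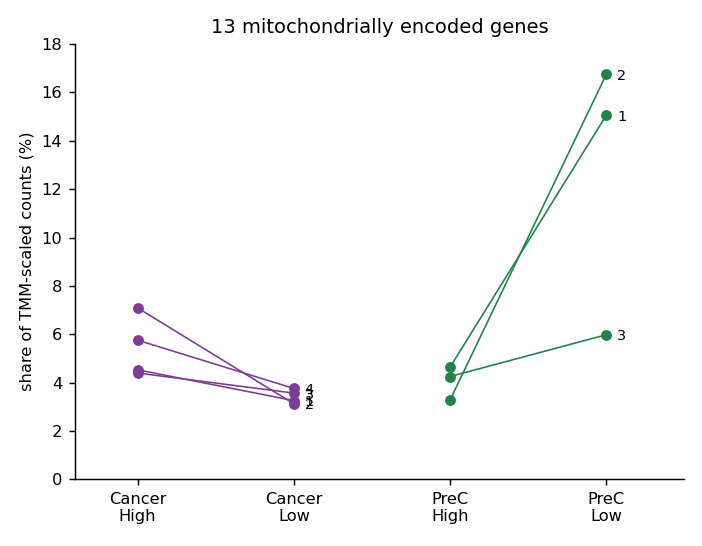
Share of the TMM-scaled counts taken by the 13 mitochondrially encoded genes in each library, with lines joining the High and Low library of a tissue and numbers giving the tissue. PreC_Low 1 and PreC_Low 2 are at 15.1% and 16.7%, and all other libraries lie between 3.13% and 7.09%.

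Of 35 tested nuclear genes of oxidative phosphorylation, with a median stage interaction of 0.28 (0.16 to 0.57 without 1 tissue), 1 was called higher and 0 lower, against 0.899% and 0.912% of all genes. That gene, NDUFS7, a core subunit of complex I, had 143, 179.5, 127 and 151 CPM in Cancer_High and 104, 86.2, 90.1 and 110.3 CPM in Cancer_Low, against 80.5, 78.8 and 102 CPM in PreC_High and 193, 215 and 165 CPM in PreC_Low. High was above Low in each Cancer tissue and below it in each PreC tissue, with a stage interaction of 1.75 ± 0.35 (adjusted p = 0.0380, at most 0.134), and the call ended without any 1 tissue other than Cancer 4.

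The remaining lists gave 1 edgeR call or none. Of 27 epithelial and keratin genes, with a median of -1.22 (-1.38 to -0.90 without 1 tissue), 1 was called lower and 0 higher, against 0.912% and 0.899% of all genes. That gene was cldnb, for an epithelial tight junction claudin, which was Low-enriched by -5.58 in Cancer and -3.81 in PreC (log2) and had a stage interaction of -1.77 ± 0.38 (adjusted p = 0.0489, at most 0.157, lost without any 1 tissue other than Cancer 4). It was called in 3 of the 17 alternatives and was lost with RLE scaling and with each other filter setting, with adjusted p up to 0.247 by limma voom with an estimated tissue correlation. DESeq2 called 1 member of the list higher and 8 lower, and limma voom 0 and 3. No member was called by edgeR among 22 endothelial genes (6 at an unadjusted p under 0.05; 6 by DESeq2, 0 by limma voom; median 1.31), 18 pericyte and smooth muscle genes (2; 1 and 0; 0.32), 19 neutrophil genes (5; 1 and 0; -0.40), 15 B cell genes (3; 2 and 1; 0.59) and 20 antigen presentation genes (5; 4 and 1; -0.04). The same held for 11 erythrocyte genes (1; 1 and 0; 1.56), 20 skeletal muscle genes (2; 3 and 1; -0.69), 17 lens genes (0; 1 and 0; 3.31) and 28 genes of Ras-MAPK output (6; 4 and 1; -0.62), with the numbers in the same order. The lens list summed to at most 65.1 CPM in any library and its median was -0.30 without PreC 1. The medians of the pericyte, neutrophil, B cell, antigen presentation and skeletal muscle lists also changed sign without 1 tissue, running over -0.19 to 0.54, -0.75 to 0.01, -0.32 to 1.45, -0.06 to 0.19 and -1.05 to 0.51.

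**Figure D5:**
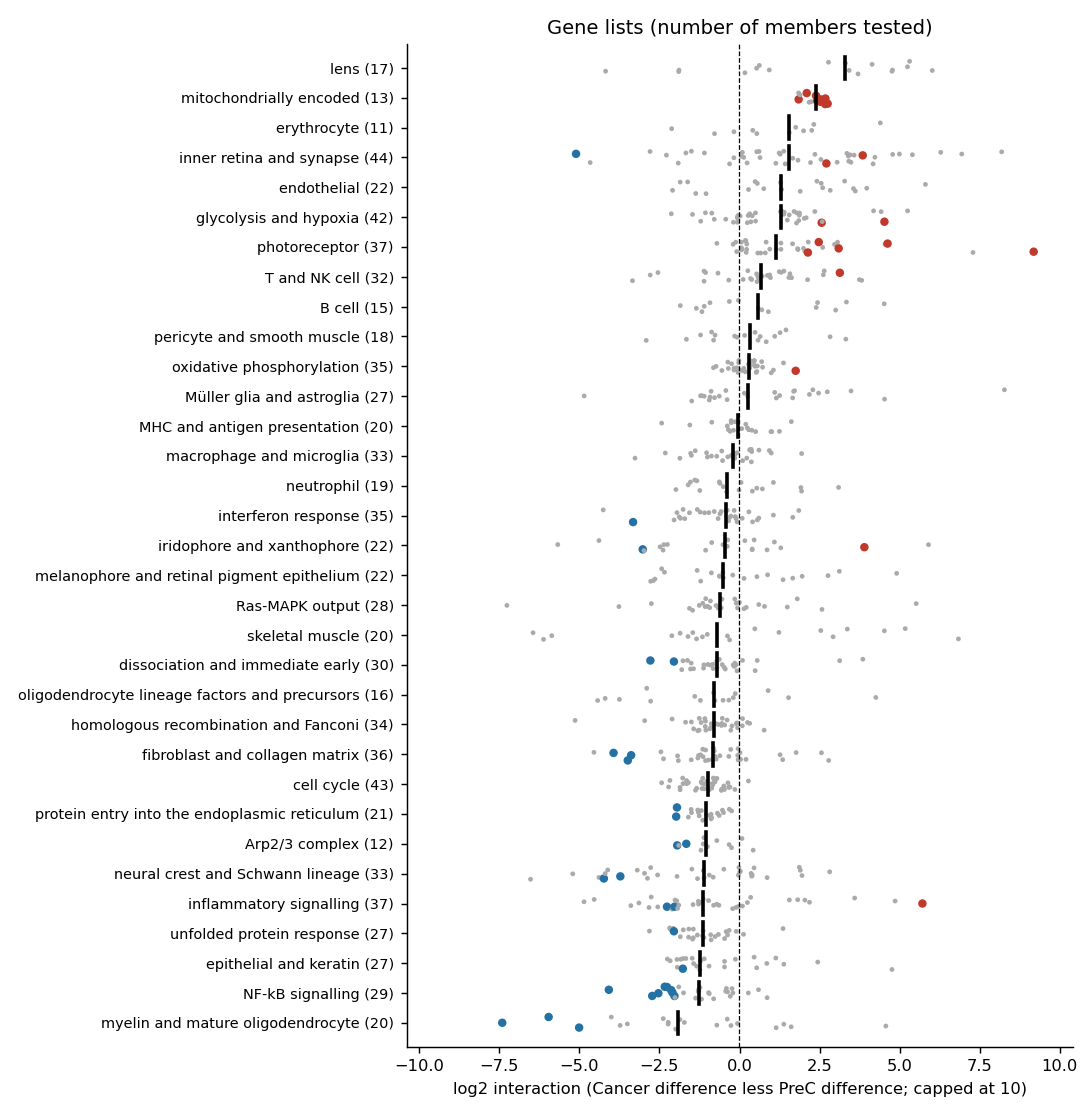
Stage interaction (log2, horizontal axis) of each tested member of 33 gene lists, drawn at 10 where a value went past it, with the list median as a black bar. Red and blue points are members called higher or lower in Cancer, grey points were not called, and the dashed line is the median of all genes, -0.02.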

How the data were processed

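Cells of dissociated eye tissue were sorted by RFP fluorescence, and their polyadenylated RNA was sequenced, per the labels' protocols. The deposited table holds raw read counts per gene and library, which the authors made from their reads. FastQC, STAR, HTSeq and DESeq2 and the build danRer10 are named in the submitters' processing notes; their versions, the annotation release and whether counting used strand were not stated there. Without a stated strand setting, reads of overlapping genes, and reads of near-identical paralogues, may be split or shared. Part of the genotype and some genes are not reported here.

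All 31701 gene IDs of the 14 mutant libraries were used, with library totals of 61845021 to 87244522 counts. edgeR 4.0.16 (R 4.3.3) was run with TMM scaling, its default expression filter and robust quasi-likelihood fits with tissue as a block (5 residual degrees of freedom, median prior degrees of freedom 5.12). The filter asks for about 10 counts in as many libraries as the smallest group holds, and 15 in total, and kept 22918 genes. Stage interactions were called at a Benjamini-Hochberg adjusted p under 0.05 over all genes. The SE printed with each was worked back from the test, as its size over the square root of the quasi-likelihood F statistic. limma 3.58.1 and DESeq2 1.42.0 were alternatives, with other scalings, filters, no block, and each tissue left out. The tissue codes in the descriptions pair the High and Low libraries. Residuals of paired libraries correlated at 0.31, 0.315, 0.333 and 0.43 in Cancer and at 0.0214, -0.0118 and 0.0747 in PreC. High and Low libraries of different tissues correlated at -0.254 to -0.0327 in Cancer and at -0.0769 to 0.063 in PreC. In PreC the paired and unpaired values thus overlapped, and the pairing there rests on the tissue codes.

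Named genes were the 12 highest and 12 lowest called values averaging 2 or more in log2 CPM, with a gene symbol other than a clone name, no group at 0 counts and differences that did not overlap between stages, up to 4 called members per list, and SOX10 and brca2. PDE6B was a further called photoreceptor gene beyond these. Genes such as mbpa, erbb3b, GNAT1, saga and SPI1 came from a longer list of cell type markers, not all of which are reported. Symbols were given to 26237 IDs, of which 4014 share a symbol. The comparison, its members and the lists were chosen with earlier results of these data known, and the lists of mitochondrially encoded, NF-kB, endoplasmic reticulum entry and Arp2/3 genes, and genes named as such in the text, after their values were seen. In simulated counts the interaction test recovered 16.7% of genes changed by 2 on the log2 scale (n = 66). It recovered 71.6% of those changed by 3 and 89.6% of those changed by 4 (n = 67 each), and called 4 unchanged genes. These rates describe the simulated counts only. Whether they hold for these libraries, with their correlated pairs in Cancer and their counting patterns, was not tested.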

Additional observations from a re-analysis of the deposited data

Results flagged for a closer look

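The High over Low difference changed with stage for 206 genes that were higher in Cancer and 209 that were lower, by edgeR's test of the difference itself (adjusted p under 0.05), and these genes are described above.

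In 8 of 100 checks of a group of 4 Cancer libraries, 1 library stood apart by Dixon's ratio, where chance gives about 1 in 20. This ratio is the gap to the nearest neighbour over the whole range. Values were log2(CPM + 1) per gene, or the percent share of the mitochondrially encoded genes. The genes checked were chosen from these same libraries, so 1 in 20 is only a rough guide. Cancer_Low 4 was apart for COL2A1 (ratio 0.8906), PFKL (0.8481) and dnajb1b (0.8991). Cancer_Low 1 was apart for MMP2 (0.8725) and MMP14 (0.8432). In Cancer_High, library 2 was apart for ccl44 (0.8309), library 3 for crp2 (0.8614) and library 4 for rorc (0.8403).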

How the results depend on the processing

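All 415 called genes kept their direction in each alternative that tested them, but each alternative reused all or most of the libraries by which the genes were chosen. The count of called stage interactions (higher and lower in Cancer) was 2915 (1727 and 1188) by DESeq2, 899 (473 and 426) by limma voom with the tissue block, 973 (523 and 450) by limma voom with an estimated tissue correlation, and 792 (550 and 242) without the block and with the control libraries. Without a filter it was 573, of which 376 were higher. The fit with no replicate block, which ignores the pairing by tissue, called 475 genes, of which 293 were among the 415. With 1 tissue left out, the count ran from 3 to 596, from 1 to 236 for higher and from 2 to 360 for lower. Calls between High and Low ran from 3439 to 7004 in Cancer and from 4831 to 8102 in PreC. The share of calls that were higher was 49.6% and became 65.6% without a filter, 69.4% with the controls, 39.6% without Cancer 4 and 65.1% without PreC 3. The median of all genes was 0.226 without a filter, 0.171 with the controls, 0.184 without Cancer 1 and 0.105 without Cancer 3, against -0.02. Without Cancer 4 and PreC 3 together, 310 genes were called. The cause of these shifts was not tested. In simulated counts, 16.7% of changes of 2 (log2), 71.6% of 3 and 89.6% of 4 were found. These rates describe the simulated counts only, and whether they hold for these libraries was not tested.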
